A study of Mus musculus with 8 samples.

Results

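Tissue outside the proliferating tumour was searched for places where the interferon-induced chemokine transcripts Cxcl9 and Cxcl10 were abundant. Each section was divided into square bins of 360 pixels, and a bin with at least 20 gene molecules counted as tissue. A tissue bin was called low-proliferation when it held fewer than 10 molecules of Mki67 and Birc5 together, and chemokine-rich when it also held at least 30 molecules of Cxcl9 and Cxcl10 together. Of 18080 tissue bins in 8 sections, 10721 were low-proliferation and 764 of those were chemokine-rich. These were 4.23% of tissue and 7.13% of low-proliferation tissue. The bins were thus chosen by the measured molecules of these 4 genes, so values built from these genes, the share of tissue and the position and density of the bins are given as description and are not tested.

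The mice carried GL261, a mouse glioma cell line, implanted in the brain and were killed on day 21 after 4 intracranial treatments. The treatments were CpG-STAT3ASO with anti-PD1 (the combination), CpG-STAT3ASO alone, anti-PD1 alone or PBS, with 2 sections each. CpG-STAT3ASO joins a CpG oligonucleotide, a ligand of the endosomal receptor TLR9, to an antisense oligonucleotide against Stat3, and anti-PD1 blocks the T cell checkpoint receptor PD-1. Transcripts of 100 genes were located by Resolve single-molecule in situ hybridization. The labels do not say that the sections came from separate animals, so p-values rest only on the spread between these sections. In limma that spread is partly or wholly shared between genes. All sections carry GL261, with no tumour-free brain analysed here. The panel holds no gene of the neuron, astrocyte, oligodendrocyte and vessel list, so the brain cells of these bins could not be checked against their markers.

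CXCL9 and CXCL10 are ligands of the receptor CXCR3, through which they attract activated T cells and natural killer (NK) cells. CXCL9 is induced mainly by interferon gamma, while CXCL10 also responds to type I interferon and to NF-kB signalling. In brain tumours they can be made by myeloid cells, glial cells and tumour cells. Cxcr3 and Cxcl11 are not on the panel.

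The promoters of the pair of genes that chose the bins are shown to set their regulatory letters side by side, from 250 bases before to 50 after the start of each gene. The sequences are RefSeq's on GRCm38.p6, both on the minus strand, at chr5:92328030-92328329 for Cxcl9 and chr5:92348840-92349139 for Cxcl10. Capitals mark matches to 3 motifs searched on both strands, namely an interferon-response pair (GAAA and GAAA separated by 2 bases), a STAT-type palindrome (TTC and GAA separated by 3 bases) and an NF-kB-like site (GGGA and TTCC separated by 2 bases).
Cxcl9: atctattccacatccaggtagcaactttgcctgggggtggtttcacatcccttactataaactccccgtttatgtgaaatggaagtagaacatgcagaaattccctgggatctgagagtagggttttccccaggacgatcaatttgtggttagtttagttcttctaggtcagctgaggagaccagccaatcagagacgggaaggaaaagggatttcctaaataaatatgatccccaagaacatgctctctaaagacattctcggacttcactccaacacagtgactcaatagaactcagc
Cxcl10: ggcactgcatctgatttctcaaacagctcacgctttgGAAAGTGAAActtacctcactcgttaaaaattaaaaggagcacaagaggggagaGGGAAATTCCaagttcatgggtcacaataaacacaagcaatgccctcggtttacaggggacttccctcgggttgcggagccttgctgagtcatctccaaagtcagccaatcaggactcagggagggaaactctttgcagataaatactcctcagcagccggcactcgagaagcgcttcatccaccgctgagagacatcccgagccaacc
The Cxcl10 window holds GAAAGTGAAA 213 bases before the start and GGGAAATTCC 159 bases before it. None of the 3 letter patterns is in the Cxcl9 window, which says nothing about distant or variant sites. Of 32851 RefSeq promoter windows of the same extent, 3.44% hold the interferon-response pair, 8.3% the palindrome and 1.47% the NF-kB-like site, and the matches do not overlap each other in Cxcl10.

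Depth ranged over the 8 sections between 1669939 and 6995401 molecules, and false-positive codes made up 0.106 to 0.306%. Detection can differ between the probe sets of genes, so a level is compared across bins and sections rather than between genes. The chemokine-rich bins ranged from 6 to 362 per section. The section with 6, anti-PD1 replicate 2, had fewer than the minimum of 10 bins and was left out of every test below unless stated, so anti-PD1 alone rests on 1 section there.

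Chemokine-rich low-proliferation bins were found in every section, but very unevenly. They numbered 14 and 362 in the combination sections (replicates 1 and 2), 40 and 103 with CpG-STAT3ASO, 59 and 6 with anti-PD1 and 43 and 137 with PBS. Combination replicate 2 alone held 47.4% of all of them, which leaves 402 in the other 7 sections. As a share of tissue bins they were 0.644 and 15.1% with the combination, 1.71 and 4.68% with CpG-STAT3ASO, 2.65 and 0.254% with anti-PD1 and 1.94 and 6.36% with PBS. The 2 sections of each treatment lay far apart. The share averaged 5.52 ± 6.58% with CpG-STAT3ASO and 2.8 ± 2.58% without (SD, n = 4 each), and 2.34 ± 2.09% with CpG-STAT3ASO when combination replicate 2 is left out. The sections with and without CpG-STAT3ASO overlapped widely.

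**Figure D1:**
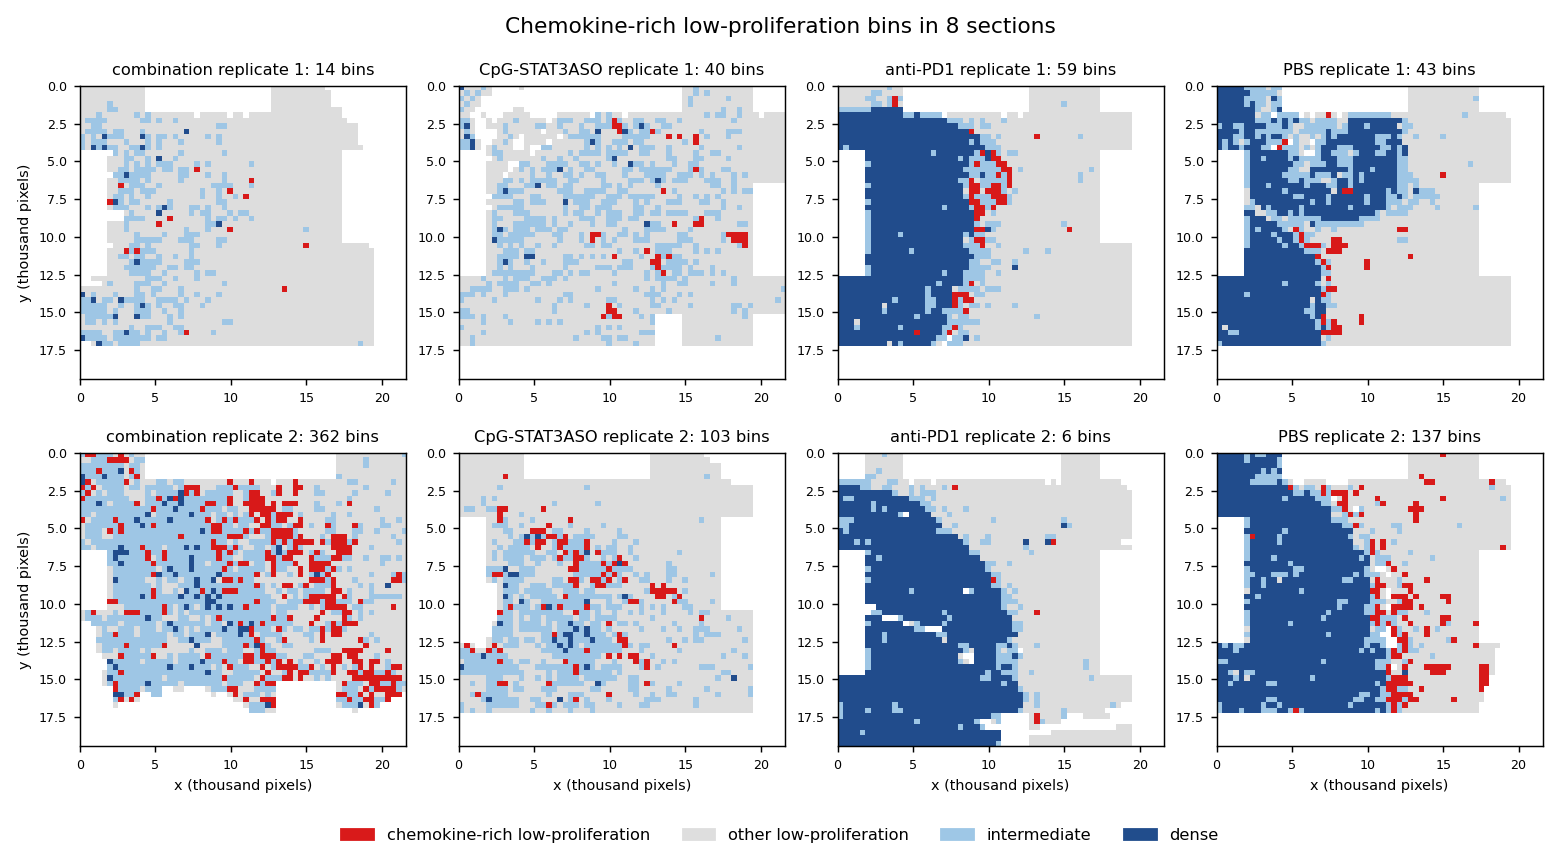
Position of the bins in each section, with x and y in units of 1000 pixels. Red squares are chemokine-rich low-proliferation bins, grey other low-proliferation bins, light blue intermediate bins (10 to 99 Mki67 and Birc5 molecules) and dark blue dense bins (100 or more). In anti-PD1 replicate 1 and both PBS sections many red bins lie just outside the dense area, and the 362 bins of combination replicate 2 spread in large patches.

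Relative to low-proliferation tissue alone, the chemokine-rich bins were 0.77 and 29.6% with the combination, 2.36 and 6.54% with CpG-STAT3ASO, 5.01 and 0.55% with anti-PD1 and 3.67 and 14.1% with PBS. Small as this territory was, it held 33 to 88.4% of the Cxcl9 and Cxcl10 molecules of low-proliferation tissue. It also held 17.4 and 26.6% of all such molecules of the section with the combination, 24.3 and 19.3% with CpG-STAT3ASO, 1.44 and 0.174% with anti-PD1 and 1.85 and 2.16% with PBS. The 4 sections given CpG-STAT3ASO all lay above the 4 others in this share, whose total includes the dense bins, those with at least 100 Mki67 and Birc5 molecules. Dense bins numbered 22 and 78 with the combination and 23 and 33 with CpG-STAT3ASO, against 827 and 1090 with anti-PD1 and 714 and 965 with PBS. A dense bin held 25.6 and 93.7 ligand molecules on average with the combination and 37.7 and 136 with CpG-STAT3ASO, against 534 and 170 with anti-PD1 and 241 and 697 with PBS.

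The threshold fell within a continuous range. There were 84 chemokine-rich bins with 30 to 34 Cxcl9 and Cxcl10 molecules and 109 low-proliferation bins with 25 to 29. At the proliferation limit, 255 chemokine-rich bins held 5 to 9 Mki67 and Birc5 molecules, and 167 bins with as many chemokine molecules lay just outside with 10 to 14. The median chemokine-rich bin held 48.5 and 57 ligand molecules with the combination, 52 and 54 with CpG-STAT3ASO, 71 and 42 with anti-PD1 and 63 and 83 with PBS. The fullest bin of all held 1026, in PBS replicate 2.

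More Cxcl10 than Cxcl9 molecules were detected in every section. Chemokine-rich bins held 4 Cxcl9 and 929 Cxcl10 molecules in combination replicate 1, and 5885 and 24946 in replicate 2. With CpG-STAT3ASO these counts were 443 and 2559 in replicate 1 and 697 and 7331 in replicate 2. With anti-PD1 they were 159 and 6646 in replicate 1 and 2 and 330 in replicate 2, and with PBS 139 and 3447, and 519 and 15171. Cxcl9 was thus 0.429 and 19.1% of the pair with the combination, 14.8 and 8.68% with CpG-STAT3ASO, 2.34 and 0.602% with anti-PD1 and 3.88 and 3.31% with PBS. The 3 highest shares were all in sections given CpG-STAT3ASO, and the lowest of all was in one too, combination replicate 1. Over 7 sections the mean was 10.7 ± 8.09% with CpG-STAT3ASO and 3.17 ± 0.779% without (SD, n = 4 and 3). The lowest section with CpG-STAT3ASO lay below all 3 without it. Chemokine-rich bins of the 7 sections had 7.5 ± 7.02% Cxcl9, against 6.04 ± 6.69% in dense bins, and were higher in 5 of 7. In other low-proliferation bins Cxcl9 was 9.86 and 33.2% of the pair with the combination and 45.5 and 26% with CpG-STAT3ASO. It was 7.61 and 9.81% there with anti-PD1 and 12.7 and 24.9% with PBS. Each value was above that of the chemokine-rich bins of its section, though these other bins held only 0.545 to 8.55 ligand molecules on average.

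**Figure D2:**
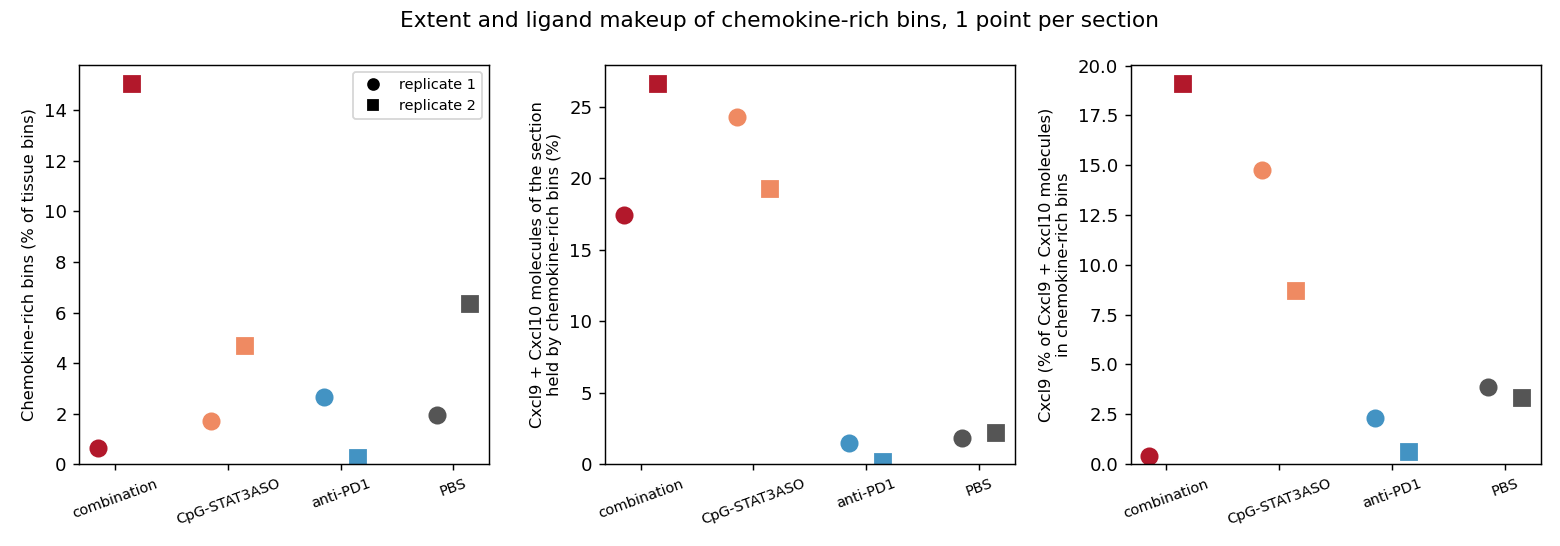
One point per section, by treatment (circles replicate 1, squares replicate 2), for the chemokine-rich share of tissue bins, the percent of the section's Cxcl9 and Cxcl10 molecules in these bins, and Cxcl9 as a percent of both ligands there. Combination replicate 2 stands alone at 15.1% of tissue, and the 4 sections given CpG-STAT3ASO hold 17.4 to 26.6% of the ligand molecules in these bins, against 0.174 to 2.16% in the others. Dense bins numbered 22 to 78 in the sections given CpG-STAT3ASO and 714 to 1090 in the others.

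Chemokine-rich bins held more transcripts than other low-proliferation bins and more often touched a bin over the proliferation limit. Leaving out the 4 genes of the rule, a chemokine-rich bin held 1056, 1498, 763, 1344, 1203, 967 and 855 gene molecules on average in combination replicates 1 and 2, CpG-STAT3ASO replicates 1 and 2, anti-PD1 replicate 1 and PBS replicates 1 and 2. Other low-proliferation bins held 704, 1146, 626, 879, 695, 619 and 725 in the same order. All 7 sections were higher in chemokine-rich bins (1098 ± 265 against 770 ± 186, SD). A bin with many molecules of any kind reaches a minimum of 30 more easily, so density is not independent of the rule and was given no test.

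A neighbouring bin with at least 10 Mki67 and Birc5 molecules touched 57.1 to 98.3% of chemokine-rich bins (median 82.5%), against 17.8 to 78.3% of other low-proliferation bins (median 34.4%). This too was higher in 7 of 7 sections (77.9 ± 17.1 against 43.5 ± 24.8%). A dense bin lay within 3 bins of 51.1 ± 20.9% of chemokine-rich bins and of 16.5 ± 4.71% of the others, higher in 6 of 7 sections. The exception was CpG-STAT3ASO replicate 1, with 15% against 19%. These neighbours are counted with the genes of the rule, and the chemokine-rich bins themselves held 2.57 to 3.86 Mki67 and Birc5 molecules on average over the 7 sections, against 0.663 to 2.45 in the others.

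The bins formed patches rather than a continuous layer. They fell into 14 and 87 patches with the combination, 16 and 44 with CpG-STAT3ASO, 16 and 5 with anti-PD1 and 15 and 38 with PBS. The largest patch had 64 bins, in combination replicate 2, whereas all 14 bins of combination replicate 1 stood alone. Bins with no chemokine-rich neighbour were 40.7 ± 40% with CpG-STAT3ASO and 11.8 ± 2.2% without (SD, n = 4 and 3). The second value leaves out anti-PD1 replicate 2, where 66.7% of only 6 bins stood alone. With that section the mean without CpG-STAT3ASO was 25.5 ± 27.5% (SD, n = 4). Inside a bin the ligand transcripts were clumped. When 30 ligand molecules were drawn from each bin, the fullest of its 4 equal squares held 53.3 to 73.3% of them (section medians over 7 sections, median 63.3%). The same value was 43.3 to 53.3% for Cd74 and 43.3 to 46.7% for Sirpa in these bins. More than 80% lay in 1 such square in 9.94 to 35.7% of bins for the ligands, in 0 to 7.89% for Cd74 and in 0 to 2.08% for Sirpa.

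Genes were then compared between chemokine-rich and other low-proliferation bins of the same section, in 7 sections, as shares of all gene molecules outside the rule. Values below are molecules per 1000 of these, as lowest, median and highest section, and tests are from limma with Benjamini-Hochberg adjustment over 91 genes. Of 91 genes, 51 changed (56%), of which 37 rose (40.7% of all tested) and 14 fell (15.4%). Each list below is read against this background, in which a large part of the panel changed. The median log2 difference of all genes was 0.49 by share. It was 0.98 per bin, with 61 genes higher and 9 lower, and 0.12 with median-of-ratios scaling, with 24 higher and 22 lower.

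A total of 14 genes rose and 7 fell under all 7 settings, and the values of 12 and 6 of them are plotted by section. These settings were the 3 scalings, a fit without weights, and comparison bins matched on molecules per bin, matched on Mki67 and Birc5, or touching a chemokine-rich bin. For the named genes that were called by share, the text says when a call was lost. It does not list every setting that lost it. Of those not called by share, Ly6a, Ikzf2, Rrm2, Cd86, Fasl, Ccr7, Cd80, Cd8a, Klrc1, Icos and Havcr2 passed as higher per bin (adjusted p = 0.00267 to 0.0179). Lag3 and Batf3 passed as lower with median-of-ratios scaling (adjusted p = 0.0099 and 0.0199). In bulk values of this kind, more cells of a type and more transcript per cell cannot be told apart.

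**Figure D3:**
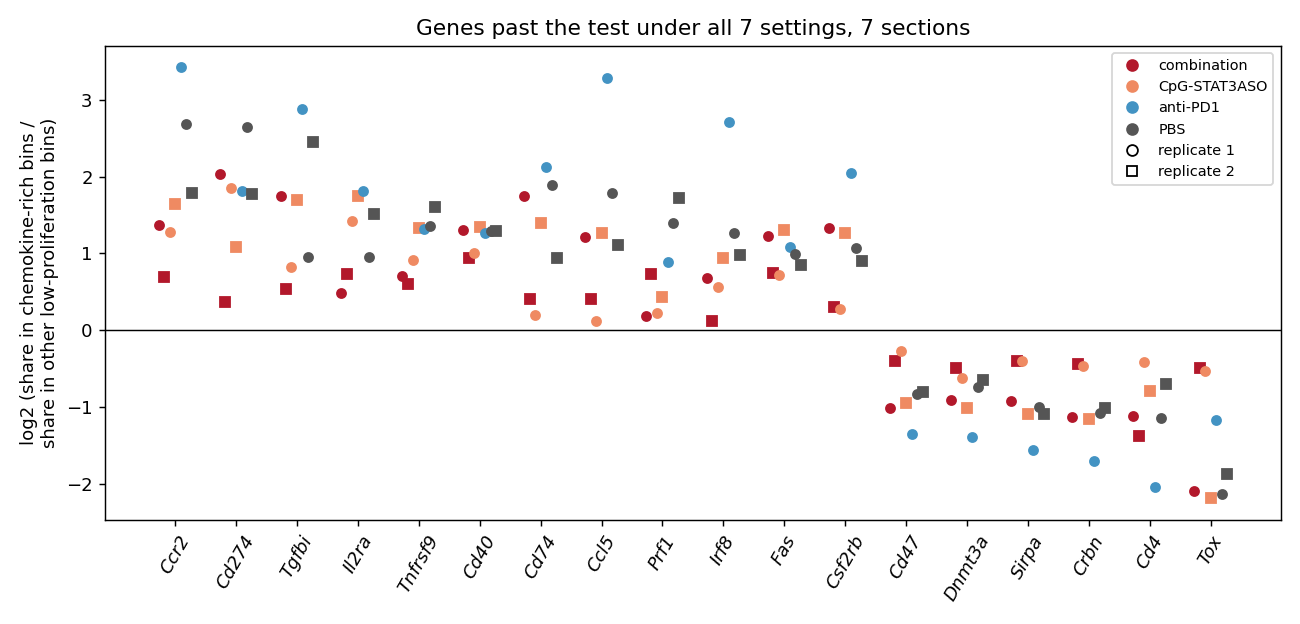
Log2 ratio of the share of molecules in chemokine-rich bins to that in other low-proliferation bins, 1 point per section (colour by treatment, circles replicate 1, squares replicate 2), for 12 genes that rose and 6 that fell under all 7 settings, with 0.05 molecules per 1000 added to both shares. All 12 are above 0 in all 7 sections and the 6 on the right are below 0 in all 7.

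Of 6 tested genes of the interferon list, 4 rose, with a list median of 0.96 against 0.49 for all genes. Cd274, which encodes the checkpoint ligand PD-L1, had 23.5, 30.5 and 45 molecules per 1000 in chemokine-rich bins and 4.61, 10.3 and 34.8 in other low-proliferation bins (3.04-fold, log2 1.6, SE 0.24, adjusted p = 0.00122). It was higher in all 7 sections, and the gap was smallest in combination replicate 2 (45 against 34.8). Irf8, a transcription factor of dendritic and other myeloid cells that interferon gamma induces, had 16.6, 19 and 43.3 against 6.55, 10.3 and 23.6 (log2 1.03, SE 0.262).

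Ifng, the interferon itself, was scarce, with 0.024 to 0.374 molecules per 1000 in chemokine-rich bins and 0.009 to 0.261 in the others. Its molecules exceeded the false-positive level in 4 of 8 sections, and its call (log2 1.2, adjusted p = 0.0227) was lost without weights (adjusted p = 0.125) and with any other choice of comparison bins (adjusted p = 0.0994 to 0.186). Ly6a, which encodes the interferon-inducible surface protein Sca-1, did not pass (log2 0.38, adjusted p = 0.0843), nor did Ifna2 (-0.62, adjusted p = 0.301). Ifnb1 was at the false-positive level in all 8 sections and was not tested.

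Of 7 other chemokines and chemokine receptors, 5 rose and 1 fell (median 1.04). Ccr2, the receptor that brings monocytes into tissue, had 1.49, 2.07 and 6.03 against 0.2, 0.546 and 2.46, which was 3.26-fold (log2 1.71, SE 0.311, adjusted p = 0.00184). Ccl5, a chemokine that attracts T cells and monocytes, had 4.62, 20.5 and 35.7 against 0.719, 9.88 and 26.8 (log2 1.19, SE 0.308, adjusted p = 0.00959). Both were higher in all 7 sections, though Ccl5 by little in CpG-STAT3ASO replicate 1 (20.5 against 19). Ccl22, a ligand of CCR4 made by dendritic cells and macrophages, rose by share (log2 1.36, adjusted p = 0.00586) but not against touching bins (adjusted p = 0.182). The inflammatory chemokines Ccl3 (log2 0.78) and Ccl4 (1.04) also rose by share, and neither held when Mki67 and Birc5 were matched (adjusted p = 0.128 and 0.105). S1pr1, a receptor for lymphocyte exit that vessels also carry, fell by share (-0.55) and not per bin (-0.05, adjusted p = 0.724). Ccr7, the lymph node homing receptor, did not pass (log2 0.75, adjusted p = 0.0579).

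T cell genes split, with 5 of 9 higher, 1 lower and 3 not past the threshold (median 0.78). Il2ra, a subunit of the interleukin-2 receptor on activated and regulatory T cells, had 0.457, 0.879 and 1.99 against 0.176, 0.283 and 0.611 (log2 1.41, SE 0.225, adjusted p = 0.00122). It rose in 7 of 7 sections and under all 7 settings. The T cell receptor chain gene Cd3d was rare, at 0.098 to 0.296 against 0.014 to 0.117, and rose by share in 7 of 7 sections (log2 1.44, adjusted p = 0.0107). It did not rise against touching bins (adjusted p = 0.401) and was above the false-positive level in 6 of 8 sections. Cd28, a costimulatory receptor, and Foxp3, the regulatory T cell factor, rose by share (log2 0.87 and 0.78) but not with median-of-ratios scaling (adjusted p = 0.0568 and 0.215).

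Cd8a, the co-receptor of cytotoxic T cells, did not pass (log2 0.49, adjusted p = 0.106). It had 0.609, 4.16, 0.655, 0.917, 1.1, 0.745 and 0.597 molecules per 1000 in chemokine-rich bins, in the section order used above for gene molecules per bin. The other low-proliferation bins had 0.856, 3.12, 0.721, 0.595, 0.282, 0.404 and 0.596. Only combination replicate 2 was above 2. Ikzf2 (log2 0.23, adjusted p = 0.124) and Icos (0.1, adjusted p = 0.609) did not pass. Cd4 fell, with 8.51, 12.3 and 20.2 against 13.8, 23.6 and 55.3 (log2 -1.1, SE 0.185, adjusted p = 0.00136). CD4 is also made by some myeloid cells, so its transcript need not mark T cells.

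Of 9 cytotoxic and NK genes tested, 6 rose and none fell (median 1.14). Prf1, the pore-forming protein perforin, had 0.098, 0.224 and 0.505 against 0.068, 0.153 and 0.197 (log2 1.06, SE 0.269, adjusted p = 0.00894) and was the only one of the 6 to rise under all 7 settings. Nkg7, a granule protein of cytotoxic cells, had 0.338, 1.25 and 2.32 against 0.105, 0.411 and 1.6 (log2 1.4, SE 0.346) and missed only against touching bins (adjusted p = 0.0788). The granule protease gene Gzmb (log2 1.24, adjusted p = 0.0459) and the NK receptor genes Klrb1c (1.56, adjusted p = 0.0217) and Klrd1 (1.14, adjusted p = 0.0371) were called by share. Gzmb and Klrd1 were lost with median-of-ratios scaling (adjusted p = 0.115 and 0.097), and Klrb1c without weights (adjusted p = 0.495). Klrb1c was at the false-positive level in 4 of 8 sections. Klrc1, Fasl and Gzma did not pass.

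Of 4 antigen-presentation and costimulation genes, 2 rose and none fell (median 0.86). Cd74, the invariant chain of MHC class II, had 54.9, 190 and 236 molecules per 1000 in chemokine-rich bins and 24.4, 52.4 and 159 in the others. This was 2.36-fold (log2 1.24, SE 0.234, adjusted p = 0.00208), higher in all 7 sections, and narrowest in CpG-STAT3ASO replicate 1 (54.9 against 47.9). Cd40, the receptor through which helper T cells license antigen-presenting cells, had 1.33, 1.9 and 2.33 against 0.657, 0.772 and 0.884. For Cd40 the lowest chemokine-rich section lay above the highest of the others, and the difference was even across sections (log2 1.25, SE 0.143, adjusted p = 0.000419). The CD28 ligands Cd80 (log2 0.49, adjusted p = 0.109) and Cd86 (0.44, adjusted p = 0.0579) did not pass.

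Among 8 checkpoint and exhaustion genes, Tnfrsf9 (4-1BB, a costimulatory receptor of activated T cells) rose under all 7 settings, as Cd274 did. It had 0.373, 0.866 and 1.37 against 0.229, 0.323 and 0.52 (log2 1.25, SE 0.199, adjusted p = 0.00122). Ctla4 (log2 0.68) and Pdcd1lg2 (1.09) rose by share and not with median-of-ratios scaling (adjusted p = 0.244 and 0.0568). Tox, a factor of T cell exhaustion that other cells also express, fell in all 7 sections (log2 -1.67, SE 0.325, adjusted p = 0.00246), at 0.068 to 0.426 against 0.22 to 0.662. It was scarce, and in chemokine-rich bins its molecules exceeded the false-positive level in only 4 of 8 sections. Pdcd1, which encodes PD-1, did not pass (log2 0.57, adjusted p = 0.277), nor did Lag3 (-0.29) or Havcr2 (0.18).

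Of 6 dendritic cell genes tested, 3 rose and 1 fell. Itgax, the integrin CD11c, had 0.524, 3.18 and 4.6 against 0.771, 1.24 and 2.1 (log2 1.1, adjusted p = 0.0145), with the call lost against touching bins (adjusted p = 0.0906). Flt3, the growth factor receptor of dendritic cells, fell (log2 -1.49, SE 0.398, adjusted p = 0.0104). The Flt3 call was lost when Mki67 and Birc5 were matched (adjusted p = 0.0636). Batf3 did not pass (-0.1, adjusted p = 0.58). The list thus moved in no common direction.

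The inflammatory cytokine list had 4 higher and 1 lower of 9. Il1b (log2 1.24), Tnf (1.08) and Il6 (1.09) rose by share, and none of the 3 rose under all 7 settings. Tlr9, the receptor of CpG DNA, had 1.87, 2.76 and 3.52 against 0.741, 1.46 and 2.67, higher in 7 of 7 sections (log2 0.69, SE 0.173, adjusted p = 0.00894), but not with median-of-ratios scaling (adjusted p = 0.101). Il12a, the p35 chain of interleukin-12, fell in 6 of 7 sections, at 0.056, 0.289 and 0.852 against 0.225, 1.96 and 2.06 (log2 -1.67, SE 0.361, adjusted p = 0.00403), though not against touching bins (adjusted p = 0.116). Il12b, the p40 chain, did not pass (log2 0.63, adjusted p = 0.393).

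General macrophage and microglia genes did not pass by share, where Adgre1 (F4/80) differed by 0.16 on the log2 scale (adjusted p = 0.343), Cd68 by 0.14 (adjusted p = 0.484), Csf1r by -0.1 (adjusted p = 0.436) and the microglia marker Tmem119 by -0.11 (adjusted p = 0.484). Per bin, Adgre1, Cd68 and Csf1r passed as higher (adjusted p = 0.0112, 0.0123 and 0.0219). With median-of-ratios scaling Csf1r passed as lower instead (log2 -0.49, adjusted p = 0.0175), as did Tmem119 (adjusted p = 0.0142). Cd14 did not pass by share (log2 0.35, adjusted p = 0.166) but was higher per bin (log2 0.84, adjusted p = 0.0119). Of 6 genes of the monocyte and macrophage list, 2 rose by share and none fell (median 0.26). Those that rose were Tgfbi, a matrix protein of monocytes and macrophages, at 5.41, 24.5 and 26.1 against 1.67, 7.56 and 18 (log2 1.57, SE 0.277, adjusted p = 0.00164), and Ccr2. Among suppressive and repair genes 3 of 9 rose and 1 fell. Gpnmb, a transmembrane glycoprotein of macrophages and glioma cells, rose in 7 of 7 sections (log2 1.13, adjusted p = 0.0117). Its level was highest in combination replicate 1, with 27.6 against 8.68. Its log2 step was 0.03 to 1.66 in the sections given CpG-STAT3ASO and 1.28 to 2.59 in the others, a difference that did not pass (limma adjusted p = 0.236). Its call was lost when Mki67 and Birc5 were matched (adjusted p = 0.145). Rrm2, the one remaining proliferation gene, did not pass (log2 0.36, adjusted p = 0.0843).

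Fas, the death receptor, and Csf2rb, a receptor chain for GM-CSF, also rose under all 7 settings (log2 1 each), and were taken up after their values were seen. Among the 7 genes that fell under all 7 settings were Sirpa, which encodes the macrophage receptor for CD47, Cd47 itself, the DNA methyltransferase Dnmt3a, the cereblon gene Crbn, and Tox and Cd4. Sirpa had 66.6, 103 and 136 against 102, 197 and 220 (log2 -0.92, SE 0.151, adjusted p = 0.00122). Cd47 had 60.6, 68.5 and 96.3 against 80.1, 133 and 169 (log2 -0.8, SE 0.142, adjusted p = 0.00164). Both also fell per bin, by 0.42 and 0.28 on the log2 scale, where the median gene was 0.98 higher.

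Stat3, the target of the antisense part of CpG-STAT3ASO, was 36 to 72.3 molecules per 1000 in chemokine-rich bins and 35.9 to 46.7 in other low-proliferation bins. It was higher in 7 of 7 sections but did not pass (log2 0.34, SE 0.138, adjusted p = 0.0579). Per bin it did (log2 0.84, adjusted p = 0.00219), and with median-of-ratios scaling it was near 0 (-0.05). By share, the log2 step of Stat3 was 0.005 to 0.24 in the sections given CpG-STAT3ASO and 0.48 to 0.9 in those without. That difference did not pass (log2 -0.6, SE 0.21, limma adjusted p = 0.236).

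Treatment was compared within the chemokine-rich bins, which asks whether the same kind of tissue carried other transcripts after CpG-STAT3ASO. Over 7 sections and averaged over anti-PD1, 4 of 84 genes tested were higher with CpG-STAT3ASO (4.76%) and 0 lower, where 12 had an unadjusted p under 0.05. The median of all genes was 0.15. For treatments within chemokine-rich bins limma used in effect 1 spread shared by all genes. A p-value there does not measure the spread of its own gene between sections. The 4 were 1 chemokine and 3 genes of macrophages, and for each the sections with and without CpG-STAT3ASO did not overlap.

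Ccl5 had 23, 35.7, 20.5 and 29.5 molecules per 1000 in the chemokine-rich bins of combination replicates 1 and 2 and CpG-STAT3ASO replicates 1 and 2, against 7.41 in anti-PD1 replicate 1 and 4.62 and 11.4 with PBS (log2 1.86, SE 0.42, limma adjusted p = 0.00119). Adgre1 had 8.19, 5.75, 8.88 and 6.5 in the same sections with CpG-STAT3ASO, against 1.11, 2.43 and 2.22 without it (log2 2.11, SE 0.545, limma adjusted p = 0.00502). Cd68, a lysosomal protein of macrophages, had 40.5, 12.5, 15.5 and 11.7 with it and 4.99, 7.65 and 5.33 without (log2 1.58, SE 0.424, limma adjusted p = 0.00502). For Cd68 combination replicate 1 stood well above the rest. Spp1, the secreted protein osteopontin, had 47.7, 3.84, 5.6 and 2.98 with CpG-STAT3ASO and 0.704, 2.09 and 2.83 without (log2 2.27, SE 0.6, limma adjusted p = 0.00502). Combination replicate 1 was again far above all others, and without it Spp1 did not pass (log2 1.47, adjusted p = 0.0597), nor did it per bin (adjusted p = 0.146). The calls also depended on which sections were fitted. Without CpG-STAT3ASO replicate 2 none of the 4 passed (adjusted p = 0.0512 to 0.181), with log2 values of 2.25 for Adgre1, 1.74 for Ccl5, 1.67 for Cd68 and 2.61 for Spp1. Cd68 and Spp1 did not pass without CpG-STAT3ASO replicate 1 (adjusted p = 0.229 and 0.498), nor with all 8 sections (adjusted p = 0.0774 and 0.125). Spp1 did not pass without PBS replicate 1 (adjusted p = 0.063), and without PBS replicate 2 only Ccl5 did. At a proliferation limit of 5 none did either (adjusted p = 0.0858 to 0.36). Leaving out combination replicate 2 gave 9 higher and 2 lower. With the replicate number as a block, 5 genes were higher, the same 4 and Tgfbi, and 2 lower, Cd74 (log2 -1.12, adjusted p = 0.00339) and Gzma (log2 -2.8, adjusted p = 0.0154).

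**Figure D4:**
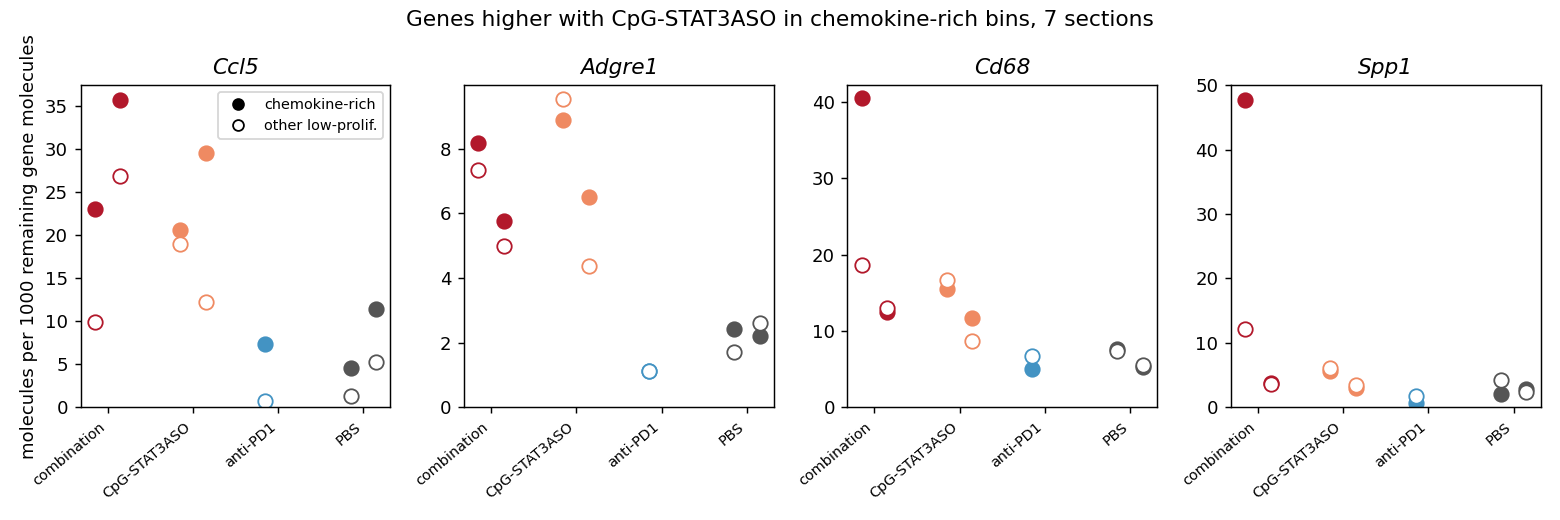
Molecules per 1000 gene molecules outside the rule for Ccl5, Adgre1, Cd68 and Spp1, by treatment, with filled points for chemokine-rich bins and open points for other low-proliferation bins of the same section (7 sections). Filled points with CpG-STAT3ASO lie above those without it in each panel, and for Ccl5, Adgre1 and Cd68 the open points do too.

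The other low-proliferation bins of the same sections showed the same order for Ccl5, Adgre1 and Cd68. Ccl5 in other low-proliferation bins had 9.88, 26.8, 19 and 12.2 molecules per 1000 with CpG-STAT3ASO and 0.719, 1.3 and 5.25 without. Adgre1 in other low-proliferation bins had 7.33, 5, 9.55 and 4.37 molecules per 1000 with CpG-STAT3ASO and 1.12, 1.72 and 2.6 without. Cd68 there had 18.6, 13, 16.7 and 8.74 against 6.73, 7.34 and 5.53. Spp1 there overlapped between the sections with and without CpG-STAT3ASO. The test of the difference itself, whether the step from other to chemokine-rich bins changed with CpG-STAT3ASO, called 0 of 91 genes (0%), with 12 at an unadjusted p under 0.05 and 0 also in the fit without weights. The smallest adjusted p there was 0.236, shared by several genes that included Ccr2 (log2 -1.58, SE 0.491) and Stat3 (-0.6, SE 0.21).

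No gene of the interferon, T cell, cytotoxic, dendritic, inflammatory, antigen-presentation or checkpoint lists passed for CpG-STAT3ASO within chemokine-rich bins without the replicate block. Cd274 differed by 0.15 (adjusted p = 0.94). Ccl22 (log2 2.3) and Tgfbi (1.16) were higher in all 4 sections given CpG-STAT3ASO than in the 3 others but did not pass (adjusted p = 0.0704 each). Stat3 had 44.6, 38.6, 36 and 47.8 molecules per 1000 with CpG-STAT3ASO and 72.3, 67 and 65.1 without. The sections did not overlap, yet the difference did not pass (log2 -0.74, SE 0.397, adjusted p = 0.353).

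Anti-PD1, averaged over CpG-STAT3ASO, changed 0 of 84 genes within chemokine-rich bins (0%). There were 2 genes at an unadjusted p under 0.05 in limma with weights and 2 without weights, and neither fit called any. Anti-PD1 alone rests on 1 section here, and 2 genes passed when combination replicate 2 was left out.

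At a scale below the bin, the transcripts around each ligand molecule of the chemokine-rich bins were compared. All transcripts of the section were counted, so the distances could reach into neighbouring bins, also those over the proliferation limit. Density within 50 pixels of a Cxcl9 or Cxcl10 molecule was divided by that in a ring 200 to 300 pixels away, as a log2 value, and Cxcl9 anchors were set against Cxcl10 anchors of the same section. Vegfa, the angiogenic growth factor, lay nearer to Cxcl10 and was the only 1 of 93 genes that passed over 7 sections (1.08%; log2 -1.56, SE 0.238, limma adjusted p = 0.0149). No gene passed as nearer to Cxcl9 (0%). Combination replicate 1 had only 4 Cxcl9 anchors, so the comparison was repeated over the 6 sections with at least 100.

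There 4 genes lay nearer to Cxcl10 (4.3%) and again 0 nearer to Cxcl9. Vegfa had a mean log2 density ratio of 0.14 around Cxcl9 (-0.79 to 1.12 over sections) and 1.63 around Cxcl10 (1.21 to 2.13). Fas had 1.27 (0.89 to 2.12) and 2.47 (2.12 to 2.77), the growth factor gene Csf1 0.65 (0.37 to 1.33) and 1.55 (1.34 to 1.8), and S1pr1 0.77 (-0.03 to 2.06) and 2.06 (1.84 to 2.43). Each of the 4 was nearer to Cxcl10 in 6 of 6 sections (limma adjusted p = 0.0315 for Vegfa, Fas and Csf1 and 0.0423 for S1pr1). The PD-L1 gene Cd274 leaned the same way in all 6 without passing (log2 -0.65, adjusted p = 0.116). Tmem119 (log2 0.78) and Il2ra (0.97) leaned towards Cxcl9 in 6 of 6, also without passing (adjusted p = 0.167 each). Over 7 sections, no gene passed with a radius of 100 pixels, and none did when either PBS section was left out.

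**Figure D5:**
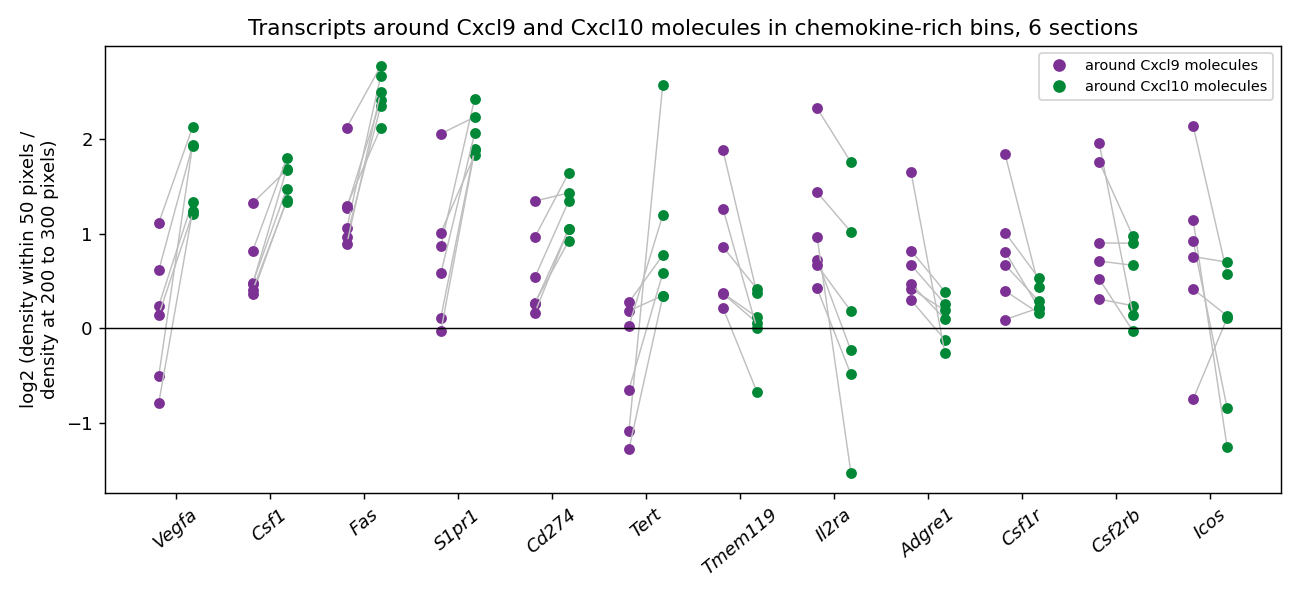
Log2 ratio of density within 50 pixels to density at 200 to 300 pixels, around Cxcl9 (purple) and Cxcl10 (green) molecules of chemokine-rich bins, for the 6 genes each way with the smallest p among those above the false-positive level in all 8 sections. Lines join the 2 values of a section (6 sections). For Vegfa, Csf1, Fas and S1pr1 every green point is above its purple partner.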

How the data were processed

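The deposited files list molecules called by the authors with x, y and z position and target name; positions have the unit pixel, here treated as other, and neither the pixel size nor the spot calling is given in the sources used here. Seurat 4.2.0 is listed in the submitters' processing notes, with no role. Names that start with FP were dropped as false-positive codes, a reading that no source states; a gene was above the false-positive level when it exceeded the 90th percentile of these codes. Sections were grouped by title. Same-numbered sections deviated together in all 3 pairs of groups with 2 sections (correlations of 0.182 to 0.274), though the labels tie a number to no animal or batch, so the fit with the number as a block is given beside the result it moves. 

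Molecules were summed over the bins of a class per section and divided by all gene molecules outside the 4 rule genes. Genes averaging 10 or more molecules per profile were fitted with limma 3.58.1 (voom, lmFit, eBayes; R 4.3.3), with section as block between bin classes and 4 group means between treatments, two-sided, Benjamini-Hochberg at 0.05. The fits were tested on simulated data. Single values built from the rule's genes or bins are given with their spread and no test (Python 3.11.15, numpy 2.4.6, pandas 2.3.3, scipy 1.17.1), and figures matplotlib 3.10.9. Surroundings used log2 density ratios with 0.5 added. Sections with fewer than 10 chemokine-rich bins were left out.

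Alternatives were other limits (20 and 50 ligand molecules, 5 and 20 Mki67 and Birc5 molecules, tissue minimum 50), bins of 180 and 720 pixels, scalings, comparison bins, gene minimum and leaving out each section. The alternatives added after seeing the data were bins matched on Mki67 and Birc5, touching bins, all 8 sections, sections with 100 Cxcl9 anchors and a radius of 30 or 100 pixels. Named genes are, per comparison, the largest changes (up to 12 higher and 12 lower) that pass the threshold with one sign in every section (for treatments, groups that do not overlap), measured members of set lists, and a few set genes; not all are printed, and the results of some genes are not reported here. Members and the 16 lists (242 genes, 78 on the panel) were chosen with earlier results of these data known. The neutrophil list has only Ly6g measured, which was too rare to test. Depth limits the single sections: fewer bins mean fewer molecules behind a value.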

Additional observations from a re-analysis of the deposited data

Results flagged for a closer look

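Single sections stood apart from the rest of their group in 6 of 75 values checked by Dixon's gap test, where chance gives about 1 in 20. The 75 include values built from the rule's genes and bins, so the count is not read against that rate. One flag is such a value and is given as description only. Among the 4 sections without CpG-STAT3ASO, anti-PD1 replicate 1 had 98.3% of its chemokine-rich bins touching a bin with at least 10 Mki67 and Birc5 molecules. The other 3 had 60.5 to 66.7%. The other 5 are log2 ratios of a gene in chemokine-rich over other low-proliferation bins, each with 1 of 7 sections apart. Scarb1, a lipoprotein receptor gene, was at -1.48 in anti-PD1 replicate 1, against -0.75 to -0.28 elsewhere. Ly6a was at -0.84 in combination replicate 1, on 104 molecules, against 0.15 to 0.9 elsewhere. The remaining 3 rest on no molecule at all in the chemokine-rich bins of the section concerned, namely Il23a at -1.55 in CpG-STAT3ASO replicate 1 (-0.69 to -0.13 elsewhere), Il6 at -1.09 in combination replicate 1 (0.43 to 1.5) and Pdcd1 at -2.7 in CpG-STAT3ASO replicate 1 (-0.12 to 1.57).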

How the results depend on the processing

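For chemokine-rich against other low-proliferation bins, the main count of 37 higher and 14 lower genes became 61 and 9 per bin and 24 and 22 with median-of-ratios scaling, so the share of higher among called genes was 72.5% by share, 87.1% per bin and 52.2% by median of ratios. Matching on Mki67 and Birc5 and using touching bins gave 20 higher each. Leaving out 1 section gave 28 to 41 higher and 13 to 16 lower. Stat6 turned to 0.16 per bin (adjusted p = 0.304) and Il6 to -0.46 against touching bins (adjusted p = 0.502). Within chemokine-rich bins, genes higher with CpG-STAT3ASO numbered 7 at a ligand limit of 20, 0 at a proliferation limit of 5 (9 at an unadjusted p under 0.05), and 0 to 9 (lower: 0 to 2) without 1 section. With the replicate number as a block they were 5 higher and 2 lower, and the block changed no count for anti-PD1 or for the change of the bin contrast. For anti-PD1 the counts without 1 section were 0 to 2 higher and 0 to 0 lower. For the change of the bin contrast with CpG-STAT3ASO, a proliferation limit of 20 gave 10 lower, bins of 180 pixels 2 lower, bins of 720 pixels 1 higher and touching bins 5 lower, and leaving out 1 section 0 to 0.

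Chemokine-rich bins were compared with other bins at a ligand limit of 20, a proliferation limit of 20, 180-pixel bins and all 8 sections. In this order they held 285, 367, 450 and 337 more molecules per bin. The 450 is scaled to the area of a bin of the main size and is not a count per 180-pixel bin. The excess was 37.5, 40.8, 37.4 and 35.4 points in touching proliferating bins. It was 35.2, 39.8, 35.4 and 35.6 points in nearness to dense bins. The remaining limits and 720-pixel bins are not given for these 3 measures. Without 1 section these 3 ranged over 298 to 361 molecules, 27.4 to 38.3 and 29.2 to 41 points. The Cxcl9 percent with against without CpG-STAT3ASO ranged over 4.78 to 11 points, and chemokine-rich against dense bins over -0.187 to 2.6. Genes nearer Cxcl10 numbered 4 over 6 sections, 0 at 100 pixels, 3 at 30 pixels and 0 to 4 without 1 section. Treatment fits with 720-pixel bins or without anti-PD1 replicate 1 were not run, since no anti-PD1 section was left.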
